A study of Mus musculus with 24 samples.

Results

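The cytosolic ribosomal protein genes encode the proteins that are assembled with ribosomal RNA into the large and the small subunit of the ribosome. They were taken as the rows of both expression tables whose symbol has the form of a ribosomal protein gene (Rpl or Rps with a number, Rplp0 to Rplp2, or Rpsa), and pseudogene rows and the Rps6k kinases were left out. The rule found 84 genes among the 41710 of each table, 52 of the large and 32 of the small subunit. Of these, 7 were paralogues whose names end in l or l1 (Rpl3l, Rpl7l1, Rpl10l, Rpl22l1, Rpl36al, Rpl39l and Rps27l), and the other 77 were called core genes, 46 of the large and 31 of the small subunit. The rule used symbols and no measured value. The 84 genes lay on 19 chromosomes in the GENCODE vM39 annotation of GRCm39.

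Ribosomes are built from near-equal amounts of each of these proteins, and the genes are transcribed at high levels in growing cells. Their mRNAs carry a terminal oligopyrimidine tract, or TOP, at the 5′ end, through which mTOR and the RNA-binding protein Larp1 control their translation. Myc is a transcription factor known to drive genes of ribosome production together with its partner Max. Mlx is the partner through which MondoA, ChREBP and some Mxd proteins bind related E-box DNA sites.

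The cells were MEFs, fibroblasts grown from pooled mouse embryos of about E14 to E16. All lines were derived from embryos bearing 2 floxed alleles of Myc, Mlx or both and 2 copies of a CreER transgene driven by the ROSA26 promoter. Excision by 500 nM 4OHT gave MycKO, MlxKO and double-knockout (DKO) cells, and cells with intact loci were called WT. Which of the WT lines gave the WT libraries, and whether each of these had 4OHT or its ethanol vehicle, was not given in the sources used here. The sample labels give a 4OHT dose for the knockout samples only, and the study describes immortalized WT controls as kept without 4OHT. In comparisons with WT, an effect of 4OHT or of active CreER and the loss of the gene therefore cannot be told apart. MycKO, MlxKO and DKO cells came from separate floxed lines, each immortalized on its own. Comparisons that involve several of these lines, such as DKO against MycKO, cannot tell line differences and gene loss apart. Primary cells and cells immortalized with SV40 T-antigen, which inactivates p53 and Rb, were each sequenced as 3 libraries of WT, MlxKO, MycKO and DKO cells, 24 libraries in all. The study described primary MycKO and DKO cells as growth-arrested when sequenced, and primary WT and MlxKO cells and all immortalized lines as proliferating. In primary cells, loss of Myc and growth arrest therefore cannot be told apart. The study described immortalized MycKO cells as mostly tetraploid. The libraries of a group were triplicate RNAs of a pooled line, so that the p-values below measure only the spread between these libraries, which may be technical.

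Between 15986856 and 20966163 reads on genes were recovered per library. Myc lay between 89.8 and 100.1 CPM (scaled read counts as deposited) in primary WT and between 19.9 and 26.8 CPM in primary MycKO and DKO libraries, and Mlx fell by 0.76 on the log2 scale in primary and by 0.71 in immortalized MlxKO cells. In immortalized DKO cells the Mlx difference from WT was -0.44, with all DKO libraries below all WT libraries, and did not pass the threshold. The sum over 9 fibroblast markers was between 13276 and 55852 CPM and was carried by collagens and Fn1. In immortalized libraries Dcn was between 6.09 and 17.5 CPM and Lum at most 8.21 CPM, with Lum at most 1.01 CPM in MycKO libraries, and Thy1 lay between 10.2 and 10.7 CPM in DKO and between 633 and 639.6 CPM in MycKO libraries. The sum over 8 macrophage markers was between 249 and 484 CPM in primary WT, 274 and 346 in MlxKO, 44.8 and 67.9 in MycKO and 92.5 and 212 CPM in DKO libraries, and at most 12.2 CPM in immortalized libraries, where Adgre1 and Tyrobp were at 0. Of 4 skeletal muscle markers, Acta1 was between 191 and 231 CPM in immortalized MycKO and at most 90.8 CPM in the other immortalized libraries, while Myod1 and Myog were at 0 in all immortalized libraries and Ckm was at 0 in MycKO libraries and at most 0.166 CPM in the others. The part of these markers' cells in the results was not tested, and in bulk samples fewer cells of a type and less RNA per cell cannot be told apart. In the immortalized table, 2 libraries stood apart for the ribosomal protein genes. The median gene of MycKO library 9 lay 0.69 above its average over the table on the log2 scale, against -0.29 and -0.25 in the other MycKO libraries. The median gene of WT library 4 lay 0.44 above, against -0.11 and 0.11 in the other WT libraries, and Myc was at 177.5 CPM in that library and at 48.1 and 39.9 CPM in the others. The sum over epithelial markers was 0.365 CPM in immortalized WT library 4, against 5.91 and 5.72 CPM in the other WT libraries. The sum over fibroblast markers was 21649 CPM there, against 28972 and 29069 CPM. What set this library apart was not tested. Member counts and medians against WT and in the interaction in immortalized cells are given with and without both libraries that stood apart, as are values of some named members.

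Most of the genes share sequence with copies elsewhere in the genome. At least 20% of the 50-base stretches of the transcript were shared with other genes in 61 of the 84 genes, and 80 shared stretches with annotated pseudogenes, with a median of 8 and up to 120 pseudogenes per gene. Only 11 of the 10249 processed pseudogenes of the annotation had a row in the tables, so that reads that fit a gene and a pseudogene could be counted for the gene or lost. Rpl3l and Rpl39l shared no stretch.

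The sequences before and after the start site are shown because most of the genes fell in primary cells without Myc. RefSeq windows of GRCm38.p6, from 250 bases before the start to 50 bases from the start on, were found for 64 of the 84 genes. A TOP start was taken as a C at most 5 bases from the annotated start with at least 4 following bases that were each C or T. It was present in 29 of the 64 genes (45.3%), in 42.5% of large and 50% of small subunit genes, and in 21.2% of all 27025 genes with a window and 23.9% of the 10560 expressed genes among these, those with at least 1 CPM in at least 3 libraries of a table. It was searched on the strand of the gene only, and annotated starts can lie some bases from the start used in these cells. The motifs below were searched on both strands, and a stretch could count for more than a single motif. The E-box CACGTG was found in 6 of the 64 genes (9.38%), Rpl13a, Rpl14, Rpl19, Rpl23, Rpl34 and Rps19, and in 8.09% of all windows and 11.6% of those of expressed genes. The ETS motif CCGGAAG was found in 40.6% of the 64 genes, 9.93% of all windows and 19.6% of those of expressed genes, and the YY1 motif AANATGGC in 20.3, 6.96 and 9.76%. TATAAA was found in 10.9% of the 64 genes, 15.7% of all windows and 8.84% of those of expressed genes. Windows of 60 bases before and 25 bases from the start on are printed for genes described below, with the TOP start or the E-box in capitals. Rpl12 was the member with the largest fall in primary MycKO cells, Rpl22l1 was lower in every knockout, Rpl28 rose in immortalized MlxKO and MycKO cells, and Rpl39l, with no TOP start, rose in primary MycKO cells.
Rpl12: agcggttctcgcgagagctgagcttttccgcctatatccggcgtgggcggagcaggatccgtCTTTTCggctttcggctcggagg
Rpl22l1: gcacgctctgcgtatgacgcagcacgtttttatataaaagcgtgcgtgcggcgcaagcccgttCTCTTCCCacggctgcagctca
Rpl28: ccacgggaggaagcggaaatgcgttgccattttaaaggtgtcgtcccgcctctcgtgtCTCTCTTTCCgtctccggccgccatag
Rpl39l: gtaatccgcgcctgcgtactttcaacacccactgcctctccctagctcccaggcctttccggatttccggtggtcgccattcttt
Rpl39, the core gene of Rpl39l, and Rps27, which had a primary WT library far below the others, both had a TOP start.
Rpl39: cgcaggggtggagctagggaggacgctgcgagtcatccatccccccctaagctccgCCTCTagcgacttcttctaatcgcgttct
Rps27: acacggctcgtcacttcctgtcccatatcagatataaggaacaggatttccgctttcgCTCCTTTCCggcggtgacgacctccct
Rpl19 and Rpl23 are shown for an E-box close to the start, which in Rpl19 lies beside a TOP start that is also in capitals.
Rpl19: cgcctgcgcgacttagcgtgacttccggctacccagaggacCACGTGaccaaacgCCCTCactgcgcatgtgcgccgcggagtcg
Rpl23: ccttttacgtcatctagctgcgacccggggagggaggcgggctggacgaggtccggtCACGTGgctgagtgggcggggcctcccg

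Ribosomal protein genes took about 4 in 100 gene reads in primary WT cells and fewer without Myc. Their share was 4.15, 4.06 and 3.85% in the WT libraries and 3.84, 3.74 and 4.32% in MlxKO libraries. It was 2.81, 2.30 and 2.83% in MycKO and 2.37, 2.39 and 2.48% in DKO libraries. All MycKO and DKO libraries lay below all WT and MlxKO libraries. In immortalized cells the share was 2.43, 2.70 and 3.20% in WT, 2.94, 3.28 and 3.38% in MlxKO, 3.76, 1.98 and 2.04% in MycKO, and 1.69, 1.71 and 2.04% in DKO libraries. The DKO libraries were below all WT and MlxKO libraries, and the MycKO group held both the library with the highest share of the table and libraries below WT.

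**Figure D1:**
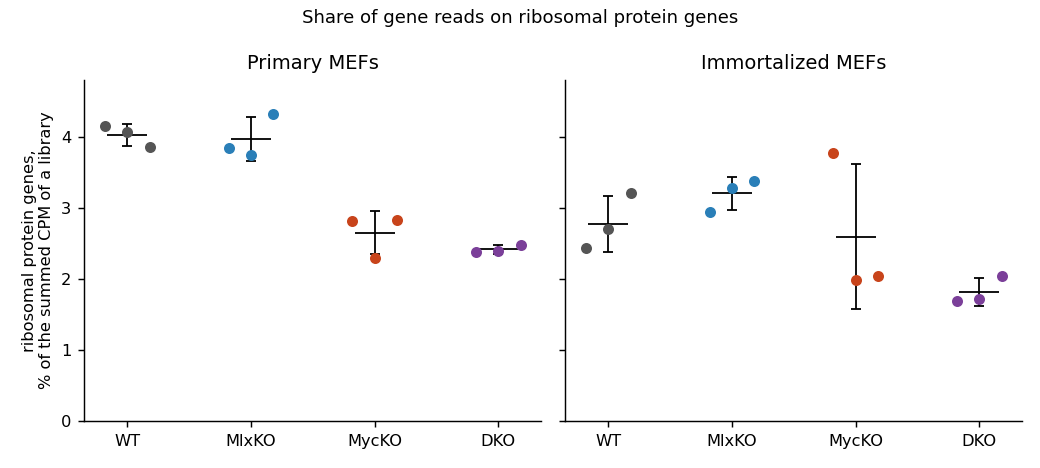
Share of gene reads (%) on the 84 ribosomal protein genes in each library, by group, for primary (left) and immortalized (right) MEFs; points are libraries and bars the mean and SD. Primary MycKO and DKO libraries lie between 2.30 and 2.83%, below the WT and MlxKO libraries, and an immortalized MycKO library at 3.76% lies apart from the other libraries of its group.

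Levels between genes were compared per kb of coding sequence and per kb of transcript, because annotated transcripts of some of these genes are much longer than others. In primary WT cells the median level per kb of coding sequence was 809 CPM over 46 core genes of the large and 910.1 CPM over 31 core genes of the small subunit. Per kb of transcript the medians were 322 and 495 CPM. The range per kb of coding sequence was wide, in core genes of the large subunit from 253 CPM for Rpl10, a protein that joins late in assembly, to 3842 CPM for Rpl41, the shortest ribosomal protein. Rpl10 shared 84.3% and Rpl41 34.1% of 50-base stretches with other genes, and the part of lost or shared reads in these levels was not tested. Coding lengths were those of the annotated canonical transcript, 138 bases for Rpl41, and levels per kb depend on that choice. Rplp0 of the stalk was at 1722 and Rpsa at 1606 CPM per kb of coding sequence. The paralogues were lower, with a median over the 6 large subunit paralogues of 86.0 CPM per kb of coding sequence. Rps27l, the small subunit paralogue, was at 547 CPM per kb of coding sequence.

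Primary cells without Myc had lower levels of most ribosomal protein genes relative to their other genes. Of 82 members tested, 69 were lower and 1 higher in MycKO than in WT cells at an adjusted p under 0.05 (limma on log2(CPM + 1), Benjamini-Hochberg over 13101 genes), where 21.9% of all genes tested were lower and 20.4% higher. The median log2 fold change of the members was -0.47, against 0.00 over all genes. Among genes with a mean of at least 100 CPM, 22.9% were lower and 34.1% higher. The large subunit had 41 lower genes of 50 with a median of -0.46, and the small subunit 28 of 32 with a median of -0.51. Of the 77 core genes 65 were lower with a median of -0.47, and of 5 paralogues tested 4 were lower and 1, Rpl39l, was higher.

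Rpl12, a protein of the stalk base (chr2:32851496-32855357), had 860.4, 792 and 779.6 CPM in the WT libraries and 483, 420.3 and 476 CPM in MycKO libraries. The groups did not overlap, and the log2 fold change was -0.82 (SE 0.07, adjusted p = 1.1e-07, limma). Rps25 followed with 397, 379 and 359.8 CPM in WT against 235, 202 and 226 CPM in MycKO libraries, a change of -0.77 (SE 0.06, adjusted p = 7.0e-08, limma). Among genes chosen by role, Rplp0 of the stalk fell by 0.59 and its partners Rplp1 and Rplp2 by 0.37 and 0.38. Rpl5, which with Rpl11 and 5S rRNA forms a particle that binds Mdm2, fell by 0.57, whereas Rpl11 changed by -0.34 and did not pass the threshold (adjusted p = 0.13, limma). Rps6, the substrate of S6 kinase, fell by 0.61, and Rpsa and Rps27a, which is made as a fusion with ubiquitin, by 0.63 and 0.64. Rps19, a gene known for its role in Diamond-Blackfan anaemia, fell by 0.46, Rps3 by 0.41 and Rpl13a by 0.39. Rpl10, Rpl38 and Rpl41 had changes of -0.23, -0.09 and -0.27 that did not pass the threshold.

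The largest positive value was that of Rps27, and it rested on 1 library. Rps27 had 6.38, 110.5 and 76.0 CPM in primary WT libraries, with 113 reads in the library at 6.38 CPM, and 88.3, 149 and 120.1 CPM in MycKO libraries. The low library was WT library 1, and the groups overlapped. The log2 fold change was 1.56 (SE 0.64, adjusted p = 0.062, limma) with all libraries and 0.34 without WT library 1 (adjusted p = 0.33, limma). Without WT library 2 or 3 it was 2.30 or 2.03 and passed the threshold. The same library gave Rps27 a value of 1.64 in MlxKO cells (adjusted p = 0.13, limma).

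In primary MlxKO cells, 1 of 82 members, Rpl22l1, was lower and 0 were higher, where 5.14% of all genes were lower and 3.75% higher. At an unadjusted p under 0.05 there were 9 members, against 3174 of all 13101 genes. By edgeR and DESeq2, 2 and 4 members were lower, where 5.75 and 7.24% of all genes were. The count was 8 without WT library 3, 9 without MycKO library 10, which enters through the shared spread, 2 without MycKO library 11 and 0 without WT library 1 or 2, MlxKO library 6 or 7, MycKO library 9 or DKO library 13 or 14. The share of all genes lower was 6.3% without WT library 3, 8.81% without MycKO library 10 and 2.9 to 4.98% without each of the others. With all libraries the members' median was -0.05. Rps28, Rpl28 and Rps29 had the most negative values, -0.43, -0.41 and -0.41, and did not pass the threshold.

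In primary DKO cells the fall took in all but a few members. There 77 of 82 members were lower than in WT and 0 were higher, where 25.5% of all genes were lower and 24% higher. The median was -0.63, with -0.60 in the large subunit (47 of 50 lower) and -0.69 in the small subunit (30 of 32 lower). Rps12 had 808, 759 and 812 CPM in WT against 427, 426 and 426 CPM in DKO libraries. Its change of -0.89 (SE 0.07, adjusted p = 6.2e-08, limma) was between groups that did not overlap. The 5 members not past the threshold were Rpl28, Rpl38, Rpl39l, Rps15 and Rps27. The members with an E-box anywhere in the promoter window fell in 6 of 6 cases with a median of -0.54. Those with a TOP start fell in 26 of 29 with -0.63 and those with a window and no TOP start in 31 of 33 with -0.66.

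Set directly against MycKO, DKO cells had 7 lower members and 0 higher, where 11% of all genes were lower and 10.6% higher, with a members' median of -0.15. Rpl30 had 190.3, 187 and 200.4 CPM in MycKO and 155, 156 and 163 CPM in DKO libraries and fell by 0.28 (SE 0.07, adjusted p = 0.0082, limma), and Rpl22, Rps27l and Rpl39l fell as well, by 0.22, 0.23 and 0.80. This count rested on MycKO library 10, in which the members' median gene was the lowest of the primary table. It was 50 without library 10, 2 without MycKO library 11 or DKO library 13, 3 without MycKO library 9 or DKO library 14, and 12 without MlxKO library 7. Among all genes 13.6% were lower without library 10 and 8.27 to 11.4% without each of the others. The Myc-by-Mlx interaction, which tests whether loss of Mlx acted differently with and without Myc, called 0 members in primary cells by limma in either direction, where 6.07% of all genes were lower and 7.47% higher. At an unadjusted p under 0.05 there were 12 members, against 3383 of all 13101 genes, and DESeq2 called 1 and edgeR 0. Lower members numbered 14 without MycKO library 10, 2 without MlxKO library 6 and 1 without WT library 2 or MlxKO library 5. The share of all genes lower was 7.86% without MycKO library 10 and 4.89 to 5.54% without each of the others.

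**Figure D2:**
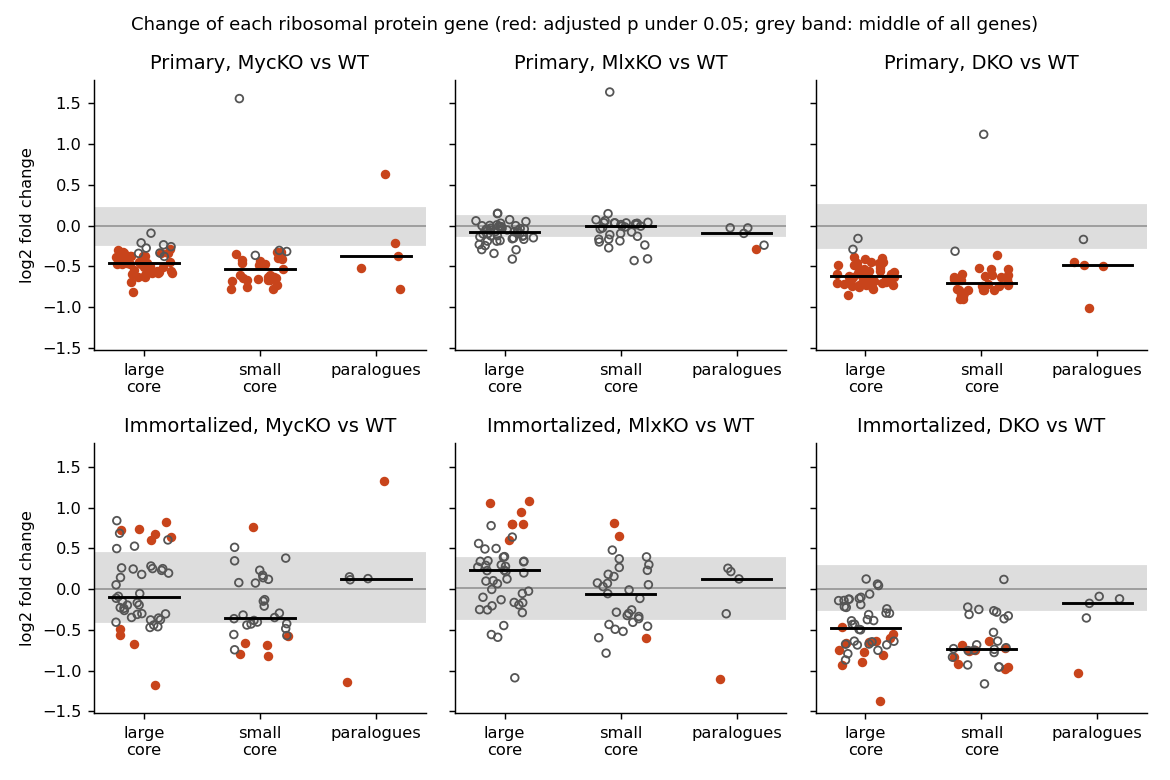
Log2 fold change of each member (points, red where the adjusted p is under 0.05) in core large, core small and paralogue genes for each knockout against WT in primary (top) and immortalized (bottom) MEFs; black lines are medians, and the grey band runs from the first to the third quartile of all genes tested. Most primary MycKO and DKO points lie below 0 for both subunits, with medians of -0.47 and -0.63 over all members. Rps27 lies above 0 in both and Rpl39l in MycKO. The immortalized MycKO points lie on both sides.

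In immortalized MycKO cells members were called in both directions. There 10 of 82 members were lower and 8 higher than in WT, where 23.5% of all 12880 genes tested were lower and 24.4% higher, and the median was -0.16. Without MycKO library 9 there were 39 lower and 2 higher with a median of -0.44. Without WT library 4 there were 5 lower and 10 higher with a median of 0.00, and without both 39 lower and 5 higher with a median of -0.31, where 27.2% of all genes were lower and 27.3% higher. Without MycKO library 10 or 11 there were 4 lower, and without WT library 2 there were 3 higher. Among all genes 21.2% were lower and 22.1% higher without MycKO library 9, and 26.7 and 27.3% without WT library 4. For MycKO library 10 or 11 the share lower was 20.2 and 19.7%, and for WT library 2 the share higher was 20.1%. The small subunit had 5 lower and 1 higher gene with a median of -0.33, and the large subunit 5 lower and 7 higher with a median of -0.07.

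The lower members included Rpl22l1, Rpl39, Rps27, Rplp0, Rps27a and Rpl30. Rps27a had 328, 300.6 and 559 CPM in WT and 337, 191 and 205 CPM in MycKO libraries, and it fell by 0.69 with all libraries (SE 0.24, adjusted p = 0.032, limma) and by 0.66 without both libraries. MycKO library 9, at 337 CPM, lay among the WT libraries, and the call was lost without WT library 4 at -0.41 and without MycKO library 10 or 11. Rplp0 fell by 0.49, with library 9 at 1103 CPM among WT libraries at 1046, 1063 and 1580 CPM. Its call was lost without WT library 4 at -0.29, without MycKO library 10 or 11 and without any library of the other groups, and held without both libraries at -0.47.

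The higher members were 7 core genes, among them Rpl28, Rps15, Rpl21, Rpl11, Rpl13 and Rpl8, and the paralogue Rpl39l, which entered the test only through the MycKO libraries and is described by its reads below. Rpl28 had 111, 170.1 and 118 CPM in WT and 290.4, 206 and 207 CPM in MycKO libraries. Its change was 0.82 (SE 0.20, adjusted p = 0.0062, limma) and 0.58 without both libraries, and the groups did not overlap. Rpl8, a protein near the peptidyl transferase centre, had 212, 292 and 375 CPM in WT and 507, 408 and 392 CPM in MycKO libraries, a change of 0.60 (SE 0.22, adjusted p = 0.037, limma) and of 0.68 without both. The call for Rpl8 was lost without WT library 2 or 3 or any of the MycKO libraries, with adjusted p between 0.052 and 0.16 (limma). Rpl13 and Rpl11 changed by 0.64 and 0.67 and were not past the threshold without both libraries, at 0.44 and 0.34.

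In immortalized MlxKO cells 9 members were higher and 2 lower than in WT, where 19.1% of all genes were higher and 19.9% lower, with a members' median of 0.10. Scaling each library by its own total gave 17 higher and 1 lower with a median of 0.26, where 28.5% of all genes were higher and 12.3% lower and the median of all genes moved by 0.16. Without both libraries that stood apart, 33 were higher and 7 lower with a median of 0.19, where 27% of all genes were higher and 27.7% lower. Without MycKO library 9 there were 19 higher and 8 lower, without WT library 4 there were 15 higher, without WT library 2 there were 4 higher and 1 lower, and without MlxKO library 6 or 7 there were 5 higher and 1 lower. The shares of all genes higher in these fits were 20.9, 23.1, 13, 10.1 and 11.3%. In the same order the shares lower were 21.9, 23.8, 14.2, 12.1 and 13.2%. Rpl8 had 460.8, 706 and 671 CPM in MlxKO libraries, all above the WT libraries, and rose by 1.08 (SE 0.22, adjusted p = 0.0029, limma). Rpl28, at 218, 313 and 299 CPM, rose by 1.06, Rpl13, at 513, 773 and 745 CPM, by 0.95, and Rps15, Rpl11 and Rpl21 by 0.81, 0.80 and 0.79. Without both libraries the values of Rpl8, Rpl28 and Rpl13 were 1.27, 0.99 and 1.01 and past the threshold. The lower members included Rpl22l1, with a change of -1.11. Rpl39, at 236, 263 and 462 CPM in WT and 172, 116 and 148 CPM in MlxKO libraries, had a change of -1.09 (SE 0.41, adjusted p = 0.054, limma), with no overlap of the groups, and passed the threshold without both libraries, at -0.79.

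**Figure D3:**
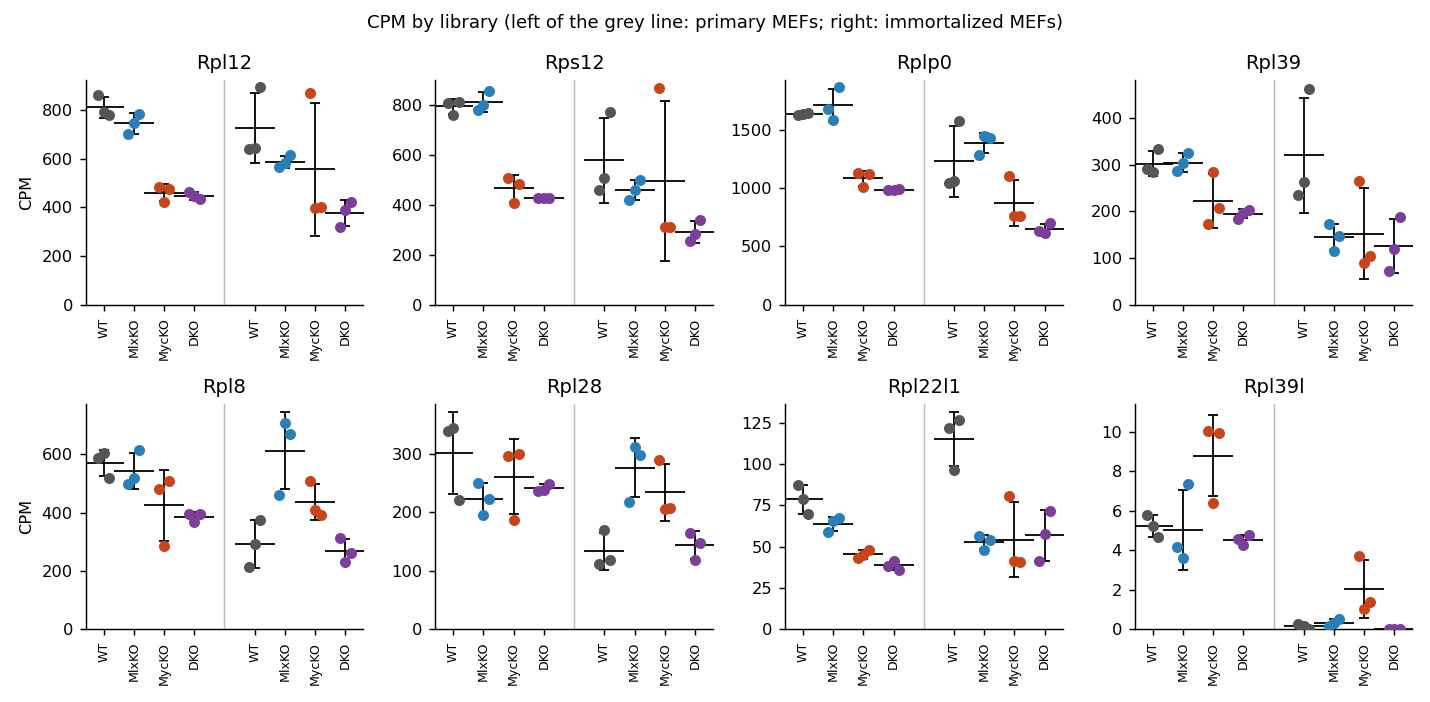
CPM of 8 members in each library of the 8 groups; points are libraries, bars the mean and SD, and primary and immortalized MEFs are divided by the grey line. Rpl12 and Rps12 are lower in primary MycKO and DKO libraries than in WT, Rpl8 and Rpl28 are higher in immortalized MlxKO libraries than in WT, and Rpl39l is higher in primary MycKO libraries than in primary WT libraries.

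In immortalized DKO cells the members that passed the threshold were lower. There 22 of 82 members were lower than in WT and 0 higher (limma), where 8.51% of all genes were lower and 10.4% higher. At an unadjusted p under 0.05 there were 43 members, against 4468 of all 12880 genes, and the members' median was -0.64. DESeq2 called 36 lower, and without both libraries that stood apart there were 45 lower and a median of -0.44, where 14% of all genes were lower and 15.6% higher. Without MycKO library 9 there were 44, without DKO library 13 there were 5 and without DKO library 14 there were 10. The shares of all genes lower in these fits were 10.3, 3.48 and 4.86%, and 11.7% by DESeq2. The large subunit had 13 lower of 50 with a median of -0.45 and the small subunit 9 of 32 with a median of -0.73. Rplp0 had 635, 615 and 697 CPM in DKO libraries, all below the WT libraries, and fell by 0.90 (SE 0.18, adjusted p = 0.0065, limma). Rpl12 fell by 0.94, Rps27a by 0.98 and Rpl39 by 1.37, and Rps21, at -1.16, did not pass the threshold (adjusted p = 0.058, limma). Without both libraries the values of Rplp0, Rpl12, Rps27a, Rpl39 and Rps21 were -0.70, -0.78, -0.71, -1.08 and -0.85, all past the threshold. Members that rose in immortalized MlxKO cells did not pass the threshold in DKO cells, with values of -0.10 for Rpl8, 0.12 for Rpl28 and -0.19 for Rpl13.

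Against MycKO cells, immortalized DKO cells had 14 lower and 0 higher members, where 14.6% of all genes were lower and 14.8% higher, with a median of -0.44. Rpl39l, which entered the test only through the MycKO libraries, was among the 14. Without MycKO library 9 there were 2, with a median of -0.11. There were 29 without WT library 4, and 9, 1 and 4 without DKO library 13, 14 or 15. Among all genes 12.1% were lower without MycKO library 9 and 20.5% without WT library 4. For DKO library 13, 14 or 15 the share was 12.8, 9.56 and 10.5%. The Myc-by-Mlx interaction called 25 members lower and 1 higher, where 23.8% of all genes were lower and 23.7% higher. The median was -0.50, and without both libraries 38 were lower and 5 higher with a median of -0.33, where 29.9% of all genes were lower and 29.9% higher. Without WT library 4 alone 38 were lower, without MycKO library 9 alone 5 were higher, without WT library 2 or DKO library 14 there were 15 lower, and without MlxKO library 6 or 7 there were 16. Among all genes 28.7% were lower without WT library 4 and 23.4% higher without MycKO library 9. For each of the others the share lower was 19.2 to 20.3%. A negative value here means that the change on loss of Mlx was lower in cells without Myc than in cells with it. Rpl13 had -1.78 (SE 0.31, adjusted p = 0.00081, limma), and Rpl8 and Rpl28 had -1.78 and -1.76. The higher member was Rpl22l1 at 1.21 (SE 0.36, adjusted p = 0.015, limma). Without both libraries Rpl13, Rpl8, Rpl28 and Rpl22l1 had -1.58, -1.86, -1.52 and 1.46, all past the threshold.

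The paralogues are genes whose proteins can take the place of a core protein in a subset of ribosomes or are known from particular tissues, such as Rpl3l in striated muscle and Rpl10l in testis. Rpl3l and Rpl10l had 0 reads in all 24 libraries, which allows up to 0.145 to 0.196 CPM at a floor of 3 reads per library, for counting error only. The other 5 were measured beside their core gene as a ratio per kb of coding sequence, described with no test.

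Rpl22l1 (chr3:28859585-28861573), a paralogue of the RNA-binding Rpl22, was lower than in WT in every knockout. It had 87.5, 78.6 and 69.7 CPM in primary WT libraries, 59.0, 65.6 and 67.0 in MlxKO, 42.7, 44.9 and 48.1 in MycKO and 38.4, 41.1 and 36.0 CPM in DKO libraries. The changes were -0.29, -0.78 and -1.01 in MlxKO, MycKO and DKO cells (limma). The MlxKO value (adjusted p = 0.047, limma) was lost without a filter on low values, on library totals and with only the compared groups in the fit, and without WT library 1 or 2, any MlxKO library, MycKO library 9 or any DKO library, with adjusted p between 0.051 and 0.23 (limma). In immortalized cells it had 122, 96.5 and 127 CPM in WT, 56.1, 47.9 and 54.0 in MlxKO, 80.5, 41.5 and 40.5 in MycKO and 40.9, 57.9 and 71.8 CPM in DKO libraries. These changes were -1.11, -1.14 and -1.03, and those groups did not overlap with WT. Without both libraries that stood apart they were -1.03, -1.38 and -0.96 and past the threshold. The DKO call was lost without DKO library 13, at -0.82 (adjusted p = 0.076, limma). Its ratio to Rpl22 was 40.2% ± 3.36 (SD, n = 3) in primary WT and between 31.6 and 32.7% in the knockout groups, and 75.8% ± 14.2 (SD, n = 3) in immortalized WT against 39.8, 40.2 and 59.0% in MlxKO, MycKO and DKO cells.

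Rpl39l (chr16:9949671-9992780), a paralogue of the exit tunnel protein Rpl39 known from testis, was higher in primary MycKO than in primary WT cells. It had 103, 96 and 80 reads in primary WT, 78, 60 and 143 in MlxKO, 181, 98 and 200 in MycKO and 89, 81 and 83 reads in DKO libraries. In CPM the MycKO libraries, at 10.0, 6.41 and 9.96, lay above the WT libraries, at 5.81, 5.21 and 4.68. The change was 0.63 (SE 0.20, adjusted p = 0.016, limma), and the call was lost without a filter on low values and without WT library 3 or MycKO library 9 or 11. In immortalized libraries the reads were 4, 3 and 0 in WT, 3, 6 and 10 in MlxKO, 73, 19 and 24 in MycKO and 0 in all DKO libraries. The MycKO mean of 2.04 CPM was at least 12.1-fold higher than the floor of 0.169 CPM in DKO libraries, taken per library, and without MycKO library 9 the mean of 1.20 CPM was at least 7.10-fold higher. The gene passed the filter in immortalized cells only through the MycKO libraries, so that its calls and these folds support nothing, and without any of these libraries it was not tested. The ratio to Rpl39 was 2.70% in primary WT and 6.62% in primary MycKO cells. It rests on coding lengths of the annotated canonical transcripts, 153 bases for Rpl39l and 237 for Rpl39. As plain CPM, the ratio lay between 1.40 and 2.00% in primary WT and between 2.25 and 5.79% in primary MycKO libraries.

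Rps27l, Rpl7l1 and Rpl36al moved with the core genes in primary cells. Rps27l, known as a gene that p53 induces, fell by 0.21 in primary MycKO and by 0.44 in DKO cells, and its largest value was 307 CPM in immortalized MycKO library 9, against 93.0 and 92.1 CPM in the other MycKO libraries. Its ratio to Rps27 could not be read in primary WT cells, where it was 2158, 125 and 181% because of the low Rps27 value. In immortalized MycKO libraries it was 438.5% in library 9 and 209.8 and 197% in the others. It lay between 114.7 and 170.2% in immortalized WT, 108.1 and 211.3% in MlxKO and 164.2 and 208% in DKO libraries. Rpl7l1, a nucleolar assembly factor related to Rpl7, fell by 0.52 and 0.48 in primary MycKO and DKO cells. Its ratio to Rpl7 lay between 13.7 and 16.7% in all primary libraries. In immortalized cells this ratio was 15.9% ± 1.04 (SD, n = 3) in WT and 22.7, 22.5 and 21.5% in MlxKO, MycKO and DKO cells, and every knockout library was above every WT library. Rpl36al fell by 0.37 and 0.49 in primary MycKO and DKO cells. Its ratio to Rpl36a was between 69.1 and 80.9% in primary and 139.9, 105, 163 and 210.1% in immortalized WT, MlxKO, MycKO and DKO cells.

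**Figure D4:**
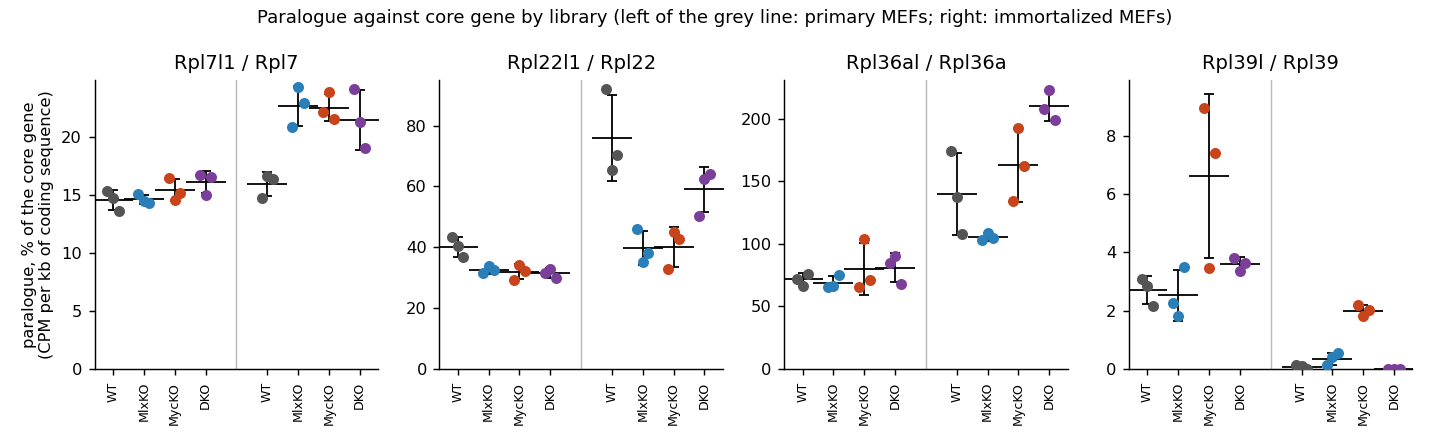
Level of Rpl7l1, Rpl22l1, Rpl36al and Rpl39l as a percentage of its core gene, both as CPM per kb of coding sequence, in each library of the 8 groups; points are libraries and bars the mean and SD. Rpl22l1 against Rpl22 is highest in immortalized WT libraries, and Rpl7l1 against Rpl7 is higher in every immortalized knockout library than in the WT libraries.

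Changes of the 82 members in primary and in immortalized cells, which share no libraries, were set beside each other. Across genes, which are not independent replicates and share base composition and depth, Pearson's r and Spearman's rho were 0.26 and 0.50 for MycKO, 0.38 and 0.70 for DKO and -0.31 and -0.36 for MlxKO cells. In DKO cells, 77 members were lower in primary and 22 in immortalized cells, so that a large overlap was set by these counts. The 22 members were lower in both tables, where 3.93% of the 12402 genes tested in both were. In MycKO cells, 9 were lower in both, 1 was higher in both and 3 were lower in primary and higher in immortalized cells. The shares of all genes were 7.18, 8.81 and 2.5%. These counts too are bounded, by 69 members lower in primary and 10 lower and 8 higher in immortalized cells. Agreement beyond these counts was not tested. Rpl8 was lower in primary and higher in immortalized MycKO cells, and its groups did not overlap in either table, with -0.47 in primary (586, 604 and 519 CPM in WT, 482, 284 and 509 CPM in MycKO) and 0.60 in immortalized cells. Both calls for Rpl8 were lost under some alternatives, in primary cells without WT library 1 or 2 (adjusted p = 0.061 and 0.073, limma). The difference between the tables was not tested.

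**Figure D5:**
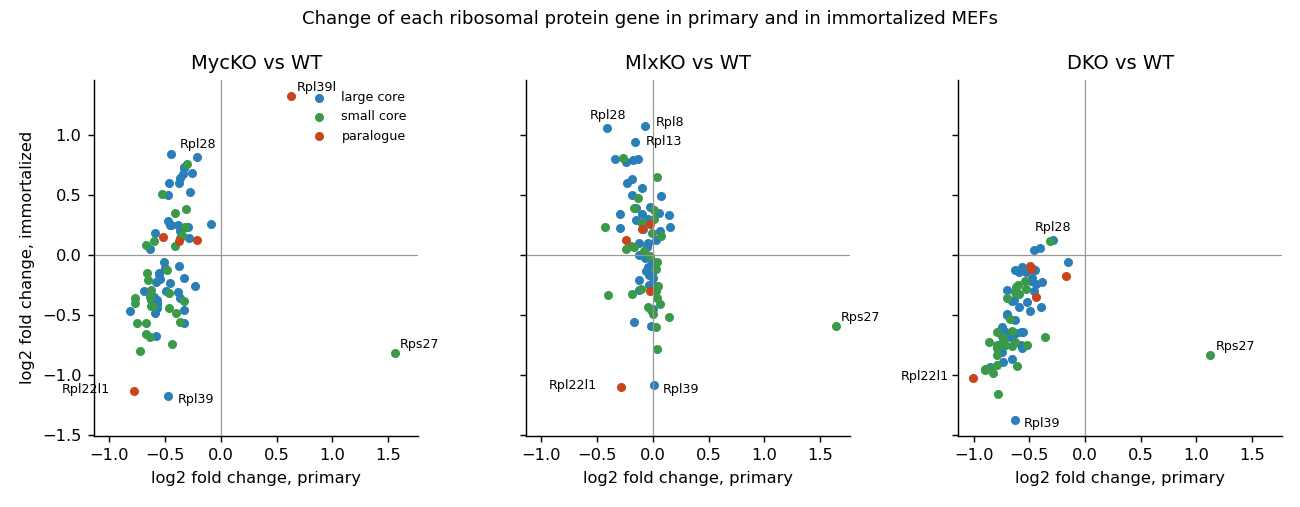
Log2 fold change of each member in primary (x axis) and immortalized (y axis) MEFs for MycKO, MlxKO and DKO against WT; each point is a gene, coloured by class. In DKO cells 22 members are lower in both tables, where 77 were lower in primary cells, and in MycKO cells 3 members are lower in primary and higher in immortalized cells.

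The base composition of the coding sequence moved with the changes in immortalized MlxKO cells and with the immortalized interaction. Coding GC content of the members lay between 39.7 and 61.6% with a median of 52.6%. Across 82 genes, Pearson's r between GC content and log2 fold change was 0.49 and Spearman's rho 0.45 in immortalized MlxKO against WT, and -0.06 and 0.08 in primary MycKO against WT. They were -0.465 and -0.463 for the immortalized interaction, where the 25 lower members had a median GC content of 54.7%, and -0.285 and -0.36 in immortalized DKO against MycKO. The median GC content was 54.8% in the 9 members higher in immortalized MlxKO cells and 47% in the 2 that were lower. The interaction holds the MlxKO change against WT with its sign turned, from the same libraries, so that its correlation is not a separate observation. No such correlation was computed over all genes, and the part of base composition in these changes was not tested. In primary MycKO cells, Spearman's rho with coding length was -0.38.

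Other genes of the translation machinery were taken from lists chosen with earlier results of these data known. Fau and Rack1, which encode further proteins of the ribosome, were lower in primary MycKO and DKO cells, Fau by 0.43 and 0.44 on the log2 scale. Rack1 had 1134, 1082 and 1100 CPM in WT and 737, 714 and 733 CPM in MycKO libraries and fell by 0.60. Of 16 other TOP mRNAs, such as those of elongation factors, 15 were lower in primary MycKO and 16 in DKO cells, with medians of -0.41 and -0.61, where 21.9 and 25.5% of all genes were lower. In MlxKO cells 0 were changed (limma). At an unadjusted p under 0.05 there were 3 there, against 3174 of all 13101 genes. Npm1, a nucleolar chaperone, fell by 0.88 and 1.19, Eef1b2 by 0.63 and 0.96 and Eef1a1 by 0.42 and 0.59. In immortalized cells 6, 3 and 9 of the 16 were lower in MycKO, MlxKO and DKO cells and 0 were higher, where 23.5, 19.9 and 8.51% of all genes were lower. Without both libraries that stood apart 10, 5 and 12 were lower and 1, 2 and 0 higher, where 27.2, 27.7 and 14% of all genes were lower and 27.3, 27 and 15.6% higher.

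Among 20 factors that escort ribosomal proteins or act late in assembly, 13 were lower and 1 higher in primary MycKO cells, and 14 were lower and 1 higher in DKO cells, where 21.9 and 25.5% of all genes were lower and 20.4 and 24% higher. Grwd1, the chaperone of Rpl3, fell by 0.82 and 1.25 and Mrto4, which holds the place of the stalk, by 0.86 and 1.12, while Sbds, a late release factor, rose by 0.21 and 0.32. In immortalized cells 5 were lower and 5 higher in MycKO and 1 was lower in DKO cells, where 23.5% of all genes were lower and 24.4% higher in MycKO and 8.51% lower in DKO cells. Without both libraries 4, 1 and 2 were lower and 5, 9 and 0 higher in MycKO, MlxKO and DKO cells. There 27.2, 27.7 and 14% of all genes were lower and 27.3, 27 and 15.6% higher. Of 11 regulators of TOP mRNAs and Rps6, 3 were lower and 1 higher in primary MycKO cells, where 21.9% of all genes were lower and 20.4% higher, and Larp1 fell by 0.17 there. In primary DKO cells 4 were lower and 1 higher, where 25.5 and 24% of all genes were. Eif4ebp1 rose by 0.93 and 0.85 in immortalized MycKO and MlxKO cells and was at 0.17 in DKO cells, and without both libraries it had 0.72, 0.72 and 0.03. The 11 as a list went both ways. Without both libraries 2, 1 and 3 were lower and 3, 4 and 1 higher in MycKO, MlxKO and DKO cells, beside the shares of all genes given above.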

How the data were processed

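RNA was isolated from triplicate sets, selected for poly-A and made into directional libraries for Illumina sequencing, and the authors counted reads per gene with CLC Genomics Workbench on GRCm39. The authors deposited the signal as CPM with a scaling between libraries that is not named in the sources used here, for 41710 genes in 12 libraries of primary and 12 of immortalized MEFs. Dividing by the smallest step in each library gave whole reads for every value within 0.01 reads, and the floor was set at 3 reads. The tables were never tested against each other.

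From the deposited signal, log2(CPM + 1) was modelled by limma 3.58.1 (R 4.3.3). Its variance prior followed mean expression, and all 4 groups of a table shared a model. Tested genes reached 1 CPM in 3 or more of 12 libraries (13101 in primary, 12880 in immortalized cells), and the threshold was a Benjamini-Hochberg adjusted p of 0.05. Fold changes are on the log2(CPM + 1) scale. Because members and lists were chosen with earlier results of these data known, no test was made over them. Named members were every paralogue with its core gene, the 3 with the largest fall and the 3 with the largest rise in each comparison, and a set by role (Rpl5, Rpl11, Rplp0, Rplp1, Rplp2, Rpl10, Rpl13a, Rpl38, Rpl41, Rps6, Rps3, Rps19, Rpsa and Rps27a). Rpl14, Rpl19, Rpl23 and Rpl34 were named after their promoter motifs were seen. Macrophage, fibroblast and muscle markers are from lists of the same kind, as are endothelial and epithelial markers, which summed to at most 19.3 CPM in any library. Alternatives were a pseudocount of 0.1, other filters, scalings, fits and library subsets, and count tests on recovered reads by edgeR 4.0.16 or by DESeq2 1.42.0. Leaving out both libraries that stood apart and levels per kb of coding sequence were chosen after the data were seen. Lengths, places and shared stretches are from GENCODE vM39 on GRCm39, and promoter windows from RefSeq on GRCm38.p6. Results for some genes are not reported here.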

Additional observations from a re-analysis of the deposited data

Results flagged for a closer look

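The interaction of Myc and Mlx loss was past the threshold for 26 of 82 members in immortalized cells, 25 lower and 1 higher, where 23.8% of all genes were lower and 23.7% higher. Among the named members it was -1.78 on the log2 scale for Rpl13 and for Rpl8, -1.76 for Rpl28, -1.74 for Rpl35, -1.72 for Rpl39l, -1.54 for Rpl36, -1.47 for Rpl21, -1.44 for Rps15, -1.43 for Rpl11, -1.07 for Rpl36a, -0.87 for Rpl13a, -0.76 for Rps3 and -0.72 for Rpsa, and 1.21 for Rpl22l1. The tested difference was that between loss of Mlx with and without Myc. Taking both directions together, a smaller share of the members than of all genes tested passed the threshold. Rpl39l passed the filter on low values only through the MycKO libraries, so that its value supports nothing. Without both libraries that stood apart, the other lower values lay between -1.86 and -0.49 and Rpl22l1 had 1.46, all past the threshold. Coding GC content moved with the interaction across members (Spearman's rho -0.463), and its part was not tested. This value is not separate from that of MlxKO against WT, which the interaction holds with its sign turned. Rpl8 was flagged as well because its MycKO libraries were all above WT in immortalized cells, by 0.60, and all below WT in primary cells, a difference between the tables that was not tested.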

How the results depend on the processing

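No paired analysis was possible because no column name shows which labelled replicate a library is. Of 288 pairs of a named member and a comparison, 185 kept direction and side of the threshold in every alternative. Called values did not change sign, and 60 pairs that had not passed the threshold did in some setting. The 3 reads of the floor limit Rpl39l, Rpl3l and Rpl10l. Scaling by library totals moved the median of all genes by -0.18 in the immortalized interaction. The cause of the moves below was not tested, except that fewer members were tested without the 61 that share stretches. The share of all genes called moved as well. In immortalized DKO against WT, 4.11% of all genes were lower without a filter and 11.7% by DESeq2.

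In primary MycKO against WT, the count higher was 0 without a filter, the count lower was 19 without sharing members, and the median was -0.57 on library totals. In MlxKO against WT the count lower was 0 without a filter, on library totals and without sharing members, 3 with median-ratio scaling, 2 by edgeR and 4 by DESeq2. In DKO against WT it was 19 without sharing members. In DKO against MycKO it was 4 without a filter and on library totals, 14 by DESeq2 and 3 without sharing members, and in the interaction it was 1 by DESeq2. In immortalized MycKO against WT, 6 were lower and 4 higher without a filter, 5 and 3 with only the groups compared, 39 and 5 without both libraries that stood apart, and 3 and 3 without sharing members. In MlxKO, 1 was lower and 17 higher on library totals, 6 lower with only the groups compared, 7 lower and 33 higher without both libraries, and 1 lower and 2 higher without sharing members. In DKO, 45 were lower without both libraries, 36 by DESeq2 and 5 without sharing members. In DKO against MycKO, 6 were lower without a filter, 31 by DESeq2 and 5 without sharing members, and the median was -0.11 without both libraries. In the interaction, 38 were lower and 5 higher without both libraries, and 6 and 0 without sharing members.

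When each library was left out, the share of all genes called moved too. It was 7.85 to 13.6% lower in primary DKO against MycKO and 3.48 to 11.6% lower in immortalized DKO against WT. Leaving out each library in turn, primary MycKO against WT had 59 to 75 members lower, 0 to 2 higher and a median of -0.54 to -0.34. MlxKO had 0 to 9 lower, 0 to 1 higher and -0.12 to -0.02. DKO had 73 to 79 lower, 0 to 1 higher and -0.67 to -0.60. DKO against MycKO had 2 to 50 lower and -0.26 to -0.095, and the interaction 0 to 14 lower and -0.17 to -0.02. In immortalized cells MycKO had 4 to 39 lower, 2 to 10 higher and -0.44 to 0.0045, MlxKO 1 to 8 lower, 4 to 19 higher and -0.01 to 0.19, and DKO 5 to 44 lower and -0.69 to -0.44. DKO against MycKO had 1 to 29 lower and -0.65 to -0.11, and the interaction 15 to 38 lower, 1 to 5 higher and -0.65 to -0.20. The share of gene reads ranged from 3.96 to 4.11% in primary WT, 3.79 to 4.08% in MlxKO, 2.55 to 2.82% in MycKO and 2.38 to 2.43% in DKO, and from 2.56 to 2.95%, 3.11 to 3.33%, 2.01 to 2.90% and 1.70 to 1.88% in the same immortalized groups.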
